A study of Caenorhabditis elegans with 27 samples.

Results

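The polysomal mRNA of gld-2(RNAi) animals was compared with that of control RNAi animals. The members of this comparison are the 6 libraries labelled as polysome samples of these conditions, 3 of gld-2(RNAi) and 3 of control, out of 27 libraries in the whole series, and every gene of the count table was considered. Both groups were whole young adult hermaphrodites of the wild-type strain N2 of Caenorhabditis elegans, fed bacteria that make double-stranded RNA against gld-2 (gld-2(RNAi)) or bacteria with the empty vector L4440 (control). Extracts were spun through sucrose gradients, fractions were pooled into a non-polysomal and a polysomal part, and poly(A)-selected RNA was sequenced. Unfractionated extract (input) was sequenced beside them, and the RNAi against gld-4 is not described here. Feeding RNAi lowers a mRNA in all tissues that respond to it and leaves a remainder, each library pools many animals, and the study describes gld-2(RNAi) animals as sterile and gld-2-compromised animals as lacking embryos, so that any embryos carried by the control adults are part of the control extracts only. The labels number the replicates without saying whether they came from separate cultures, so p-values measure the spread between these libraries, which may be technical.

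GLD-2 is a cytoplasmic poly(A) polymerase, an enzyme that lengthens the poly(A) tails of mRNAs after they have left the nucleus. It has no RNA-binding domain of its own and is brought to mRNAs by partners such as GLD-3 and RNP-8, while deadenylases of the CCR4-NOT complex shorten the same tails. In the C. elegans hermaphrodite germ line it is needed for germ cells to enter and pass through meiosis and to form sperm and oocytes. Polysomes are mRNAs loaded with several ribosomes, so the polysomal fraction holds mRNAs under translation, and the level of a mRNA there depends both on how much of it the animal holds and on what share of it carries ribosomes.

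The gld-2(RNAi) polysomal libraries held 14975009, 15190466 and 15577688 counts, and the control libraries 13511707, 14667285 and 16209864. Replicate 1 stood apart in both groups. Log counts of replicates 2 and 3 correlated at 0.997 in gld-2(RNAi) and 0.996 in control, while those of replicate 1 with either of the others correlated at 0.930 to 0.937. Values below are therefore given per library, in the order of replicates 1, 2 and 3, and the counts of calls are also given without replicate 1. Values are counts scaled by edgeR's TMM factors (normalized counts), which compare a mRNA between libraries but not one gene with another, as they are not divided by length. Such scaling places the bulk of mRNAs at no change, so a shift common to all polysomal mRNAs stays hidden. In whole-animal RNA, fewer cells of a type and less RNA per cell cannot be told apart.

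The targeted mRNA was low in the gld-2(RNAi) polysomes. Normalized counts of gld-2 were 49.7, 138 and 91.9 in gld-2(RNAi), against 919.6, 1178 and 1382 in control. The groups did not overlap. The log2 fold change of gld-2 was -3.63 ± 0.39, with an edgeR adjusted p of 0.00184. The SE after ± is, throughout, the absolute log2 fold change divided by the square root of edgeR's F statistic. The mRNA of gld-4, the other cytoplasmic poly(A) polymerase of the germ line, had 824, 1176 and 1086 normalized counts in gld-2(RNAi), against 1955, 1751 and 2416 in control, a log2 fold change of -0.99 ± 0.18 (edgeR adjusted p = 0.00971). All 3 gld-2(RNAi) libraries lay below all 3 controls for gld-4, and the change stayed just under 2-fold.

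Of the 7418 expressed genes, defined by a mean of at least 100 normalized counts over the 9 input libraries, 7263 are protein-coding. The 9 include the 3 gld-2(RNAi) input libraries, so a mRNA near absent from control can pass through its gld-2(RNAi) counts. The tested genes therefore lean towards mRNAs that are high in gld-2(RNAi). In gld-2(RNAi) polysomes 644 of the 7418 genes were called lower (8.68%) and 402 higher (5.42%). A call needs a 2-fold change with an edgeR adjusted p up to 0.05. Without replicate 1 of both groups the counts were 810 and 505. They were 504 and 229 with control library 2 alone left out, and 446 and 190 with control library 3 alone left out. Under the filter of 100 input counts, changes downward were more numerous and smaller than those upward. The median fold of the called mRNAs was 2.65 among the lower and 6.11 among the higher ones, and a change of at least 4-fold was reached by 144 of the lower and 239 of the higher mRNAs. The mRNAs that rose had few counts in control polysomes, with a median of 117 normalized counts in control, against 768 for those that fell and 662 for all genes tested. Libraries of gld-2(RNAi) and control did not overlap for 634 of the 644 lower and all 402 higher mRNAs, and for 54.1% of all genes tested in either direction. The calls were made on these same libraries, so this separation is no further support for them. With the fold threshold left aside, 1581 mRNAs (21.3%) were lower and 1347 (18.2%) higher. Scaling to library size alone gave 845 lower and 295 higher mRNAs. Lower mRNAs were then 74.1% of the calls, where TMM gave 61.6%, and this scaling placed the median log2 fold change of all genes at -0.16, against 0.02 with TMM. The excess of lower calls also depended on the filter. With TMM, lower mRNAs were 50.5% of the calls at a mean of at least 10 input counts. They were 50.8% with genes kept from 1 count on. The plot of mean counts shows both sides of the comparison.

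**Figure D1:**
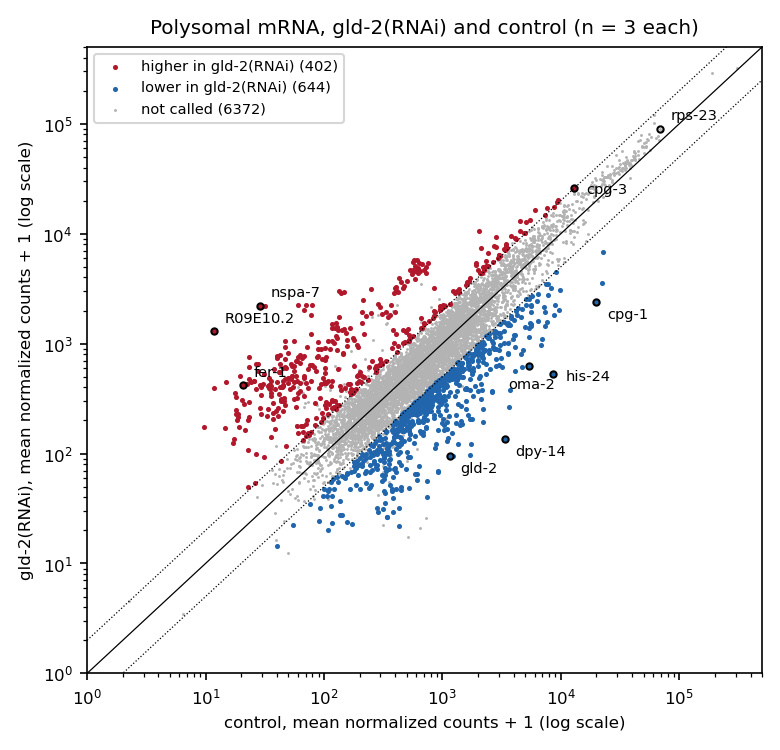
Mean polysomal normalized counts (plus 1, log scales) of gld-2(RNAi) on the vertical axis and control on the horizontal axis, 1 point per gene tested, with red points called higher (402) and blue points called lower (644). The solid line marks equal levels and the dotted lines 2-fold, and the red points spread widest at the low end of the control axis while most blue points lie within 4-fold of equality.

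The calls were spread over all 6 chromosomes. The share of tested genes called lower was between 7.32% on chromosome III and 10.8% on chromosome I. The share called higher was 8.64% on chromosome IV, the highest of the 6, and 2.25% on the X chromosome, the lowest.

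Genes of the oocyte and of the eggshell formed the list with the lowest median. Of 19 members, all tested, 13 were called lower and 1 higher, at a median log2 fold change of -1.65, against 0.02 for all genes. Of all genes tested 8.68% were called lower and 5.42% higher. The count of lower members was 13 in every setting in which 1 library was left out and also without replicate 1. The mRNA of oma-2, which encodes a zinc finger protein required for oocyte maturation, had 691, 575 and 596 normalized counts in gld-2(RNAi), against 4791, 5872 and 5571 in control (log2 fold change -3.13 ± 0.13, edgeR adjusted p = 0.000223). Its paralog oma-1 had 1345, 1829 and 1915 in gld-2(RNAi), against 3144, 4077 and 4084 in control (-1.15 ± 0.18, edgeR adjusted p = 0.00551). Neither gene's groups overlapped, and the change of oma-1 was the smaller of the pair.

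The chondroitin proteoglycans of the eggshell fell with high counts. Normalized counts of cpg-1 were 3048, 1975 and 2080.0 in gld-2(RNAi), against 22124, 18742 and 19062 in control (-3.08 ± 0.21, edgeR adjusted p = 0.000616), and those of cpg-2 were 4676, 2863 and 3102 in gld-2(RNAi), against 24310.3, 20833 and 21472 in control (-2.65 ± 0.23, edgeR adjusted p = 0.00106). Both stood far below every control library. The related cpg-3 was the 1 member of the list that rose, with 20479, 27602 and 29899 in gld-2(RNAi), against 11893, 13747 and 12864 in control (1.02 ± 0.18, edgeR adjusted p = 0.00759), and its call was lost in 7 settings, among them library size alone. Also lower were puf-11, a PUF-family RNA-binding protein, at -2.52 ± 0.08 (edgeR adjusted p = 0.000209), and, at log2 fold changes of -2.04 to -1.17, egg-5, puf-5, mbk-2, chs-1 (the eggshell chitin synthase), cbd-1, egg-2, egg-4 and lin-41 (a TRIM-NHL protein of the oocyte). The members not called were egg-1 (-0.96), rme-2 (-0.82, the yolk receptor of oocytes), egg-3 (-0.79), perm-2 (0.32) and perm-4 (0.41).

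The maternal mRNAs that oocytes store for the embryo showed the same direction in most members. Of 19 regulators of the early embryo, 11 were called lower and none higher (median -1.50), against 8.68% of all genes called lower. At an edgeR adjusted p up to 0.05 whatever the fold, 17 were lower and 1 higher, against 21.3% and 18.2% of all genes. Left-out libraries gave 10 to 13 lower members. The zinc finger protein gene pos-1 had 1132, 908 and 872 normalized counts in gld-2(RNAi), against 7525, 6176 and 6832 in control (-2.82 ± 0.15, edgeR adjusted p = 0.000292). The RNA-binding protein gene spn-4 had 1149, 1131 and 1045 in gld-2(RNAi), against 6019.7, 7464 and 7219.9 in control (-2.64 ± 0.12, edgeR adjusted p = 0.000243). Each group was tight and both genes were several-fold lower in every gld-2(RNAi) library. The list continued with zif-1 (-2.02 ± 0.21, edgeR adjusted p = 0.00153), whose product directs germline proteins to degradation in somatic cells of the embryo, and mei-2 (-1.98 ± 0.10, edgeR adjusted p = 0.000292), a subunit of the katanin complex of the meiotic spindle. Also called were pie-1, mex-6, mex-5, par-3, mex-1, mei-1 and nos-2, at -1.95 to -1.38. Not called were the polarity genes pkc-3, par-1, par-2, par-4, par-5 and par-6 and the transcription factor gene skn-1, at -0.98 to 0.61, and cey-2, a Y-box protein gene and the member with the highest counts, which had 49305, 36605 and 39474 in gld-2(RNAi), against 40621, 34762 and 37055 in control (0.16 ± 0.17, edgeR adjusted p = 0.5).

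**Figure D2:**
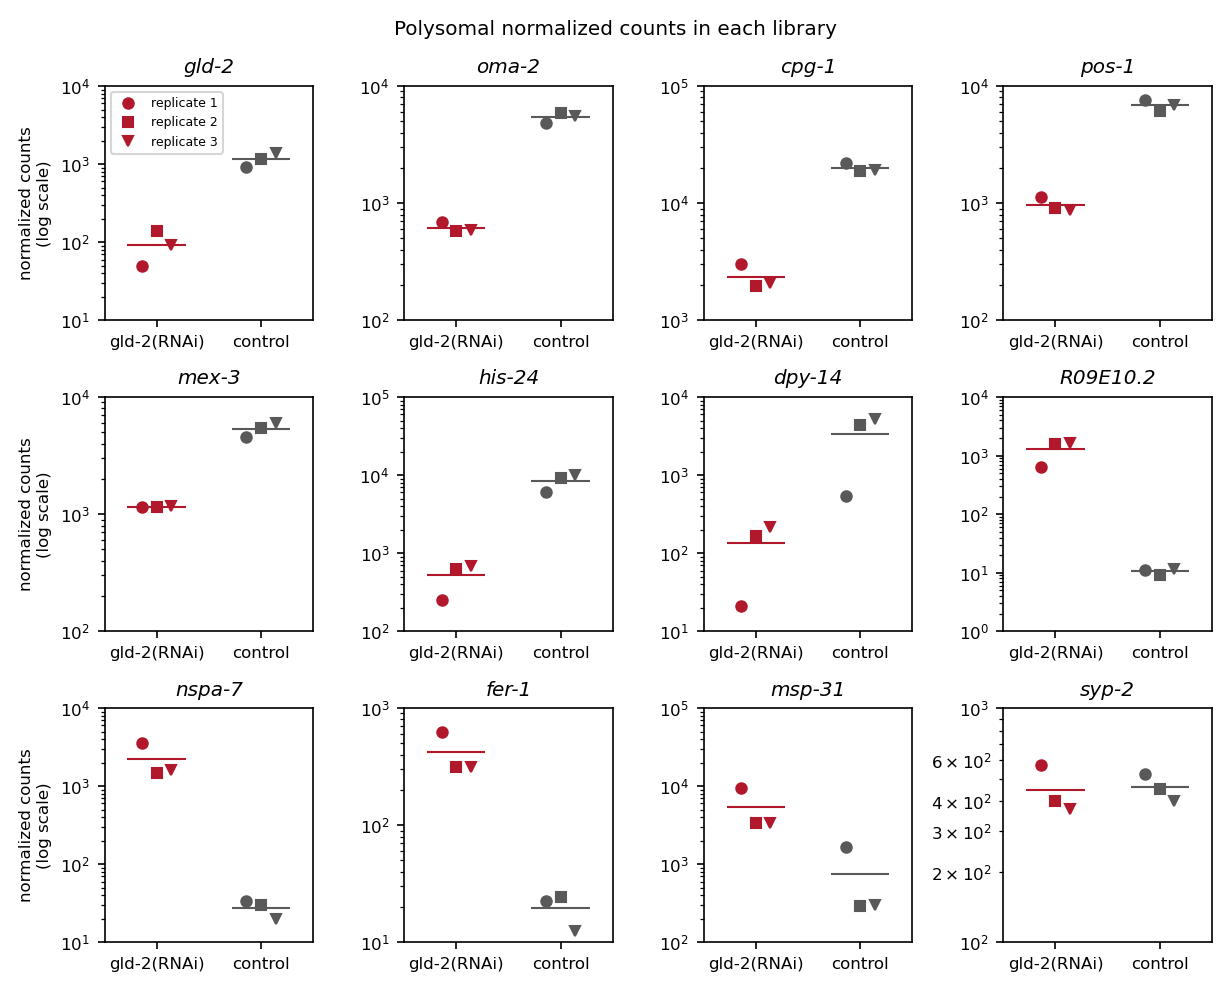
Polysomal normalized counts (log scales, which differ between panels) of 12 genes in each library, gld-2(RNAi) on the left and control on the right, with a symbol per replicate number and a line at the mean. In oma-2, cpg-1, pos-1 and mex-3 the 3 libraries of each group lie close together, in dpy-14 control replicate 1 lies at 540.5, far below control replicates 2 and 3, and in syp-2 the groups overlap.

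Regulators of mRNA in the germ line, several of which work with GLD-2 or its partners, fell in large part. Of 21 members 19 were tested, with 10 called lower and none higher (median -1.04), against 8.68% of all genes called lower. Left-out libraries gave 7 to 9 lower members. The KH-domain protein gene mex-3 had 1152, 1162 and 1166 normalized counts in gld-2(RNAi), against 4573, 5443 and 5997 in control (-2.20 ± 0.12, edgeR adjusted p = 0.000298). The PUF-family mRNAs puf-7 (-2.14 ± 0.16, edgeR adjusted p = 0.000808), puf-6 (-2.05 ± 0.18, edgeR adjusted p = 0.00119) and puf-3 (-1.96 ± 0.10, edgeR adjusted p = 0.000292) fell, and since puf-6 and puf-7 are close paralogs their counts may be split unevenly. By contrast puf-8 (-0.19, edgeR adjusted p = 0.379), fbf-1 (0.53, edgeR adjusted p = 0.137) and fbf-2 (0.79, edgeR adjusted p = 0.0867) were not called. The last 2 are near-identical PUF genes of germline stem cells, and their counts are uncertain.

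The translational repressor gene gld-1, which holds back many maternal mRNAs in meiotic germ cells, had 3568, 2294 and 2521 normalized counts in gld-2(RNAi), against 10833, 6215 and 6517 in control (-1.49 ± 0.28, edgeR adjusted p = 0.0106). Both groups had their highest value in replicate 1, and they did not overlap. Also lower were fem-3, cpb-3, cpb-1, tra-2 and gls-1, at -1.85 to -1.04, while larp-1 (-0.36) and fog-1 (-0.03) were not called. The mRNAs of the GLD-2 partners gld-3 (-0.72, edgeR adjusted p = 0.00343) and rnp-8 (-0.35, edgeR adjusted p = 0.0766) were lower by less than 2-fold, and only gld-3 passed the adjusted p. The DAZ-family gene daz-1 had 1661, 1150.1 and 1114 in gld-2(RNAi), against 3189, 1963 and 2317 in control (-0.93 ± 0.24, edgeR adjusted p = 0.0279), and nos-3, a Nanos homolog, had 1697, 1563 and 1638 in gld-2(RNAi), against 2031, 1888 and 2017 in control (-0.28 ± 0.08, edgeR adjusted p = 0.0366). Neither reached 2-fold.

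Among genes of deadenylases, the enzymes that act against GLD-2, and of other subunits of their complexes, 2 of 9 were called lower and 1 higher (median -0.09). The shares over all genes were 8.68% and 5.42%. The mRNA of ccr-4, a catalytic subunit of the CCR4-NOT complex, had 1433, 1484 and 1633 normalized counts in gld-2(RNAi), against 5162, 5546 and 6039.8 in control (-1.88 ± 0.10, edgeR adjusted p = 0.000298), and it fell in every setting run. The PAN2 homolog panl-2 fell as well (-1.54 ± 0.21, edgeR adjusted p = 0.00345), whereas parn-1 rose (1.34 ± 0.30, edgeR adjusted p = 0.0178), a call lost when gld-2(RNAi) library 3, control library 2 or control library 3 was left out, and with library size alone.

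Cell cycle genes fell as well. Of 20 cyclins and cell cycle kinases 12 were called lower and none higher (median -1.23), against 8.68% of all genes called lower. At an adjusted p up to 0.05 whatever the fold 18 were lower, against 21.3% of all genes. The B-type cyclin gene cyb-3 had 2191, 1879 and 1972 normalized counts in gld-2(RNAi), against 8597, 9942 and 10288 in control (-2.25 ± 0.12, edgeR adjusted p = 0.000292), and cyd-1, the D-type cyclin gene, had 18.6, 58.6 and 59.7 in gld-2(RNAi), against 274, 414 and 437 in control (-3.02 ± 0.47, edgeR adjusted p = 0.00551). In cyd-1 replicate 1 was the lowest library of both groups. The phosphatase genes cdc-25.2 (-2.88 ± 0.48, edgeR adjusted p = 0.00668) and cdc-25.3 (-2.34 ± 0.34, edgeR adjusted p = 0.00462) were also among the lowest. Of 13 tested members of the Notch and Ras-ERK pathways, which control germ cell proliferation and oocyte growth, 4 were called lower (median -0.95), namely lip-1 (a MAP kinase phosphatase, -2.51 ± 0.16, edgeR adjusted p = 0.000488), lin-45 (Raf, -1.34 ± 0.14, edgeR adjusted p = 0.00157), gap-3 (-1.34 ± 0.32, edgeR adjusted p = 0.0216) and sygl-1, a target of Notch signalling in germline stem cells (-1.16 ± 0.24, edgeR adjusted p = 0.0136). The call of gap-3 was lost when gld-2(RNAi) library 3 or control library 3 was left out, and that of sygl-1 when gld-2(RNAi) library 3 or control library 1 was. Left-out libraries gave 3 to 6 lower members of these pathways, and library size alone gave 8.

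Genes of meiotic chromosomes did not share this fall. Of 33 members none was called in either direction, the median was -0.01, and 5 were lower and 4 higher at an adjusted p up to 0.05 whatever the fold (9 and 7 with the replicate block, and 6 and 0 with library size alone). In the polysomal comparison the replicate block pairs gld-2(RNAi) with control libraries of the same number. The axis protein gene him-3 had 718, 510.1 and 495 normalized counts in gld-2(RNAi), against 1269, 1037 and 916 in control (-0.90 ± 0.20, edgeR adjusted p = 0.0166), and its paralog htp-1 had 764, 469 and 521 in gld-2(RNAi), against 1127, 816 and 708 in control (-0.60 ± 0.25, edgeR adjusted p = 0.112). The synaptonemal complex gene syp-2 had 571, 401 and 372 in gld-2(RNAi), against 525, 451 and 399.5 in control (-0.03 ± 0.21, edgeR adjusted p = 0.91). For htp-1 and syp-2 the libraries of the groups overlapped. In each of the 3 numbered pairs of libraries htp-1 was lower in gld-2(RNAi), by 0.56, 0.80 and 0.44 on the log2 scale, and its edgeR adjusted p was 0.00363 with the replicate block, at a change under 2-fold. Library size alone gave 2 lower members, and left-out libraries gave at most 1. Of 11 genes of P granules, the germline RNA granules, only glh-2 was called, with 5684, 8348 and 8787 in gld-2(RNAi), against 2602, 2933 and 2964 in control (1.42 ± 0.18, edgeR adjusted p = 0.00313). It encodes a Vasa-like RNA helicase, and its paralog glh-1 was 0.99 ± 0.19 (edgeR adjusted p = 0.0112), just under 2-fold. At an adjusted p up to 0.05 whatever the fold, 5 of the 11 were higher and 1 lower, against 18.2% and 21.3% of all genes. With library size alone 2 were higher and 2 lower.

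mRNAs of sperm were among those that rose. The major sperm proteins are the cytoskeletal and signalling proteins of nematode sperm, and 24 of the 28 tested msp genes were called higher (median 2.82), against 5.42% of all genes tested. These 28 of 31 members passed the input filter, which counts the gld-2(RNAi) libraries as well. The msp genes are near-identical copies, so that reads kept only where they map to a single place are split among them uncertainly. Together they took 0.949%, 0.431% and 0.438% of all counts of the gld-2(RNAi) libraries, against 0.207%, 0.0454% and 0.0448% in control. Replicate 1 was the highest library in both groups, and every gld-2(RNAi) library was above every control library. The member with the highest counts, msp-31, had 9554, 3331 and 3384 normalized counts in gld-2(RNAi), against 1670.0, 290.3 and 302 in control (2.85 ± 0.88, edgeR adjusted p = 0.0465). The count of called msp genes turned on single libraries. With 1 library left out it was 0 for control library 2, control library 3 or gld-2(RNAi) library 3, and 2 for gld-2(RNAi) library 1 or 2, while the medians of these fits were 2.21 to 3.09. Leaving out control library 1 or replicate 1 of both groups made it 28, as did a replicate block.

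Sperm genes outside the msp family moved in the same direction. Of 65 members 34 were tested, of which 28 were called higher and none lower (median 2.94), against 5.42% of all genes called higher. The input filter includes gld-2(RNAi) libraries, so members near absent from control are tested mainly where they are high in gld-2(RNAi). The share called higher is therefore not support by itself. The ferlin gene fer-1, needed for sperm membrane fusion, had 626, 316 and 311 normalized counts in gld-2(RNAi), against 22.6, 24.3 and 12.6 in control (4.40 ± 0.44, edgeR adjusted p = 0.00146), and it was higher in every setting run. The input counts of fer-1, on which the filter acts, were 543, 225 and 235 in gld-2(RNAi), against 17.2, 18.2 and 13.7 in control. The Argonaute gene alg-3, which acts in spermatogenesis, had 1237, 303 and 302 in gld-2(RNAi), against 85.8, 24.3 and 26.9 in control (3.76 ± 0.84, edgeR adjusted p = 0.018), and gsp-3, a phosphatase gene of sperm, had 3364, 951 and 945 in gld-2(RNAi), against 283, 49.5 and 63.8 in control (3.75 ± 0.91, edgeR adjusted p = 0.0236). Replicate 1 was again the highest library of each group for alg-3 and gsp-3, and both calls were lost without control library 2 or 3, as was that of nspd-2. The peptide gene nspd-9 had 2809.8, 1988 and 1959.7 in gld-2(RNAi), against 84.6, 58.8 and 34.4 in control (5.26 ± 0.37, edgeR adjusted p = 0.000668), and nspd-2, the member with the highest counts, was 3.02 ± 0.64 (edgeR adjusted p = 0.0152). The count of called members was 8 without control library 2, 7 without control library 3 and 20 to 31 without any other library.

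**Figure D3:**
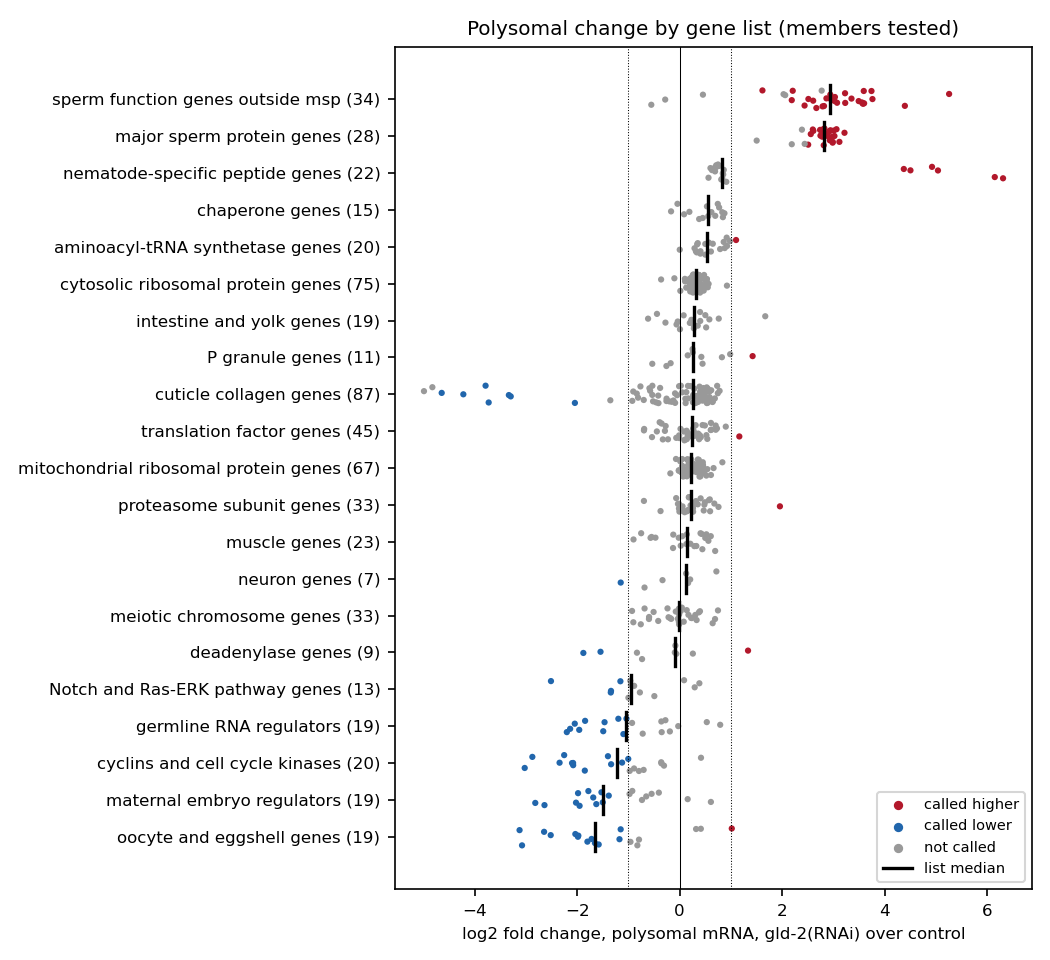
Log2 fold change of polysomal mRNA, gld-2(RNAi) over control, for each tested member of 21 gene lists (number tested in brackets), with called members in red (higher) or blue (lower), other members in grey and a black bar at the list median. The sperm lists lie to the right with medians of 2.94 and 2.82, the oocyte and eggshell genes lie lowest at -1.65, and the meiotic chromosome genes and the lists of general housekeeping and somatic genes lie near the middle.

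The largest single increase was that of R09E10.2 on chromosome IV, with 647, 1589.8 and 1632 normalized counts in gld-2(RNAi), against 11.3, 9.33 and 11.8 in control, a 118-fold change (6.89 ± 0.49 in log2, edgeR adjusted p = 0.000676). The nematode-specific peptide genes nspa-7 (6.31 ± 0.49, edgeR adjusted p = 0.000834) and nspa-6 (6.15 ± 0.46, edgeR adjusted p = 0.000804) came next, nspd-9, nspa-8 and nspa-5 were also among the first 12, and the copies of this family are similar enough for their reads to be uncertain. Of 22 tested genes of the nspa and nspc families, 6 were called higher and none lower (median 0.82), against 5.42% of all genes called higher. The input filter, which includes gld-2(RNAi) libraries, favours mRNAs of this kind, so the share is not support by itself. The 6 were all nspa genes, between 4.38 (nspa-3) and 6.31 (nspa-7), while the nspc genes were between 0.56 (nspc-6) and 0.91 (nspc-17). The remaining genes of the first 12 were spc-2, lgc-40, icmt-1, ant-1.3, F46A9.1 and C34F11.5, at 4.78 to 5.19. Among these lgc-40, a gene of the ligand-gated ion channel family, differed in pattern, with 128, 1103 and 1035 in gld-2(RNAi), against 16.9, 23.3 and 26 in control (5.08 ± 0.89, edgeR adjusted p = 0.00793). Its lowest gld-2(RNAi) library was replicate 1, whereas ant-1.3, an adenine nucleotide translocator gene, had its highest there, with 4881, 913 and 937 in gld-2(RNAi), against 132, 54.1 and 50.4 in control (4.84 ± 0.92, edgeR adjusted p = 0.0104). The calls of icmt-1 and ant-1.3 were lost without control library 2 or 3.

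At the other end stood genes of linker histones and of the cuticle. The linker histone H1 gene his-24 had 253, 631 and 692 normalized counts in gld-2(RNAi), against 6111, 9315 and 10176 in control (-4.02 ± 0.45, edgeR adjusted p = 0.00204), and the related hil-3 had 44.7, 154 and 166 in gld-2(RNAi), against 1153, 1956 and 2142 in control (-3.83 ± 0.53, edgeR adjusted p = 0.00391). The highest gld-2(RNAi) library was several-fold below the lowest control library in both. Another H1 gene, hil-7, had 12.4, 125 and 148 in gld-2(RNAi), against 165, 2610.0 and 2342 in control (-4.15 ± 1.23, edgeR adjusted p = 0.0411), where control library 1 was close to the gld-2(RNAi) libraries 2 and 3 and the call was lost in 8 settings.

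Among called genes whose groups did not overlap, the collagen gene dpy-14 had the largest reduction, with 21.1, 165 and 215 normalized counts in gld-2(RNAi), against 540.5, 4438 and 5174 in control (-4.65 ± 1.13, edgeR adjusted p = 0.0235). The collagen dpy-10 had 22.4, 45.9 and 49.9 in gld-2(RNAi), against 134, 1026 and 1070.1 in control (-4.22 ± 0.86, edgeR adjusted p = 0.0131). In both genes control library 1 lay far below control libraries 2 and 3, though above every gld-2(RNAi) library. The same held for dpy-17 (-3.79 ± 0.80), dpy-7 (-3.73 ± 0.94), the transcription factor genes egl-46 (-4.30 ± 0.96) and hbl-1 (-3.78 ± 0.98), the molting gene mlt-11 (-3.74 ± 0.68), T02E9.5 (-3.72 ± 0.88) and Y65B4BL.1 (-3.80 ± 0.63), with edgeR adjusted p-values between 0.0068 and 0.0277. Calls of dpy-10, mlt-11 and Y65B4BL.1 were kept in every setting, while dpy-14, dpy-17, dpy-7, egl-46, hbl-1 and T02E9.5 each lost theirs when control library 2, control library 3 or gld-2(RNAi) library 2 was left out. All of these 6 but dpy-17 also lost it for gld-2(RNAi) library 3, and dpy-7 and hbl-1 for gld-2(RNAi) library 1. Of 87 tested cuticle collagen genes 7 (8.05%) were called lower and none higher, against 8.68% of all genes, with a median of 0.26. The sign of the median turned on single libraries, at -0.47 without gld-2(RNAi) library 1 and 0.91 without control library 1. The 7 were dpy-14, dpy-10, dpy-17, dpy-7, dpy-3, sqt-3 and col-65. This count was 1 when control library 2, control library 3 or gld-2(RNAi) library 2 was left out, 2 for gld-2(RNAi) library 3, 9 for control library 1, 21 for gld-2(RNAi) library 1 and 23 for replicate 1 of both groups. Over all 7418 genes 643 mRNAs were called lower without gld-2(RNAi) library 1 and 810 without replicate 1 of both groups.

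Few genes of the translation machinery were called. None of 75 tested cytosolic ribosomal protein genes was called, and their median of 0.32 was 0.11 with library size alone and -0.01 without gld-2(RNAi) library 1. Together they took 22.04%, 15.4% and 16.1% of the counts of gld-2(RNAi) libraries, against 18.9%, 15.8% and 15.3% in control, with replicate 1 the highest of each group. The member with the highest counts, rps-23, had 124046, 70653 and 75517 normalized counts in gld-2(RNAi), against 83839, 63959.7 and 60188 in control (0.38 ± 0.29, edgeR adjusted p = 0.338), and control library 1 overlapped the gld-2(RNAi) group. Of 20 aminoacyl-tRNA synthetase genes only ears-1 was called, with 5842, 6839 and 6658 in gld-2(RNAi), against 3175, 2991 and 2845 in control (1.10 ± 0.10, edgeR adjusted p = 0.00119). Smaller increases were frequent there, since 15 of the 20 were higher at an adjusted p up to 0.05 whatever the fold (18.2% of all genes), at a median of 0.54. With library size alone 7 were, at a median of 0.36. Of 15 chaperone genes 10 were higher in this sense and none was called (median 0.56), and with library size alone 1 was higher (median 0.38). With single libraries left out the counts were 10 to 15 for the synthetases and 5 to 10 for the chaperones.

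Of 45 translation factor genes only ife-5, a germline cap-binding protein gene, was called higher (1.17 ± 0.25, edgeR adjusted p = 0.015), and of 33 proteasome subunit genes only rpn-6.2 (1.96 ± 0.39, edgeR adjusted p = 0.0124). The ife-5 call was lost when control library 3 or gld-2(RNAi) library 1 was left out and with library size alone, and that of rpn-6.2 when control library 2 or 3 was. None of 67 mitochondrial ribosomal protein genes was called (median 0.22). Medians were 0.24 for translation factors and 0.21 for the proteasome, against 0.05 and 0.02 with library size alone.

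Somatic tissue markers were read as a check of the rest of the animal. None of 23 muscle genes was called (median 0.14, and -0.03 with library size alone) and none of 19 intestine and yolk genes (median 0.27, and 0.08 with library size alone). With gld-2(RNAi) library 1 left out, 3 muscle genes were called lower, 1 intestine gene lower and 1 higher, and the medians were -0.04 for muscle and -0.21 for intestine. With control library 1 left out they were 0.39 and 0.60, and without replicate 1 of both groups 4 muscle genes were called lower. The yolk protein gene vit-6, which had the highest counts of the intestine list, had 105423, 60224 and 68085 normalized counts in gld-2(RNAi), against 91940.1, 51615 and 55810.1 in control (0.23 ± 0.33, edgeR adjusted p = 0.61). Replicate 1 was the highest library in both groups and the groups overlapped. Of 7 tested neuron genes 1 was called lower (-1.15 ± 0.35, edgeR adjusted p = 0.0457, M142.1 in the count table), a call lost when any library but control library 1 was left out and with library size alone. Markers of sperm thus moved up and those of oocytes down, with the medians of muscle and intestine turning sign with the library left out, and the part of tissue composition in the changes of other genes was not tested.

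The question of whether the polysomal change went beyond that of the mRNA in the animal was addressed by setting it beside the input. The comparisons share no library, but libraries of the same number deviated together in both fractions (r = 0.540 to 0.807 over genes), so that they are not independent. Polysomal library 3 correlated more closely with input library 2 than with input library 3, at 0.788 against 0.540 in gld-2(RNAi) and 0.679 against 0.559 in control. Of the 644 mRNAs lower in polysomes, 487 were also called lower in input, which is 75.6% of the polysomal and 53.9% of the 904 input calls (12.2% of genes tested). Of the 402 higher in polysomes, 358 were also called higher in input, which is 89.1% of the polysomal and 58.7% of the 610 input calls (8.22%). No mRNA was called in opposite directions. The median log2 fold change of the mRNAs lower in polysomes was -1.41 in polysomes and -1.43 in input, and that of the higher ones was 2.61 in polysomes and 3.14 in input.

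The difference of the changes itself was tested as an interaction of fraction and RNAi over 12 libraries, polysomal minus input. It called 1 mRNA lower (0.0135% of those tested) and 0 higher (0.00%), with 1142 at an unadjusted p under 0.05. The called mRNA was clec-91, a C-type lectin gene (polysomal minus input -1.31 ± 0.15 in log2, edgeR adjusted p = 0.0277). In polysomes it had 370.2, 376 and 344 normalized counts in gld-2(RNAi), against 2442, 2822 and 2682 in control (-2.86 ± 0.10), and in input 1234, 1086 and 1191 in gld-2(RNAi), against 3876, 3458 and 3093 in control (-1.57). All 3 gld-2(RNAi) libraries were below all 3 controls in both fractions, and the fall was larger in polysomes. This call was lost when replicate 2 or 3 of either group was left out (0 mRNAs lower in each of these fits), with library size alone, and with genes kept from 1 count on. For the interaction the replicate block was another one, which pairs the polysomal with the input library of the same RNAi and number. With it 105 mRNAs (1.42%) were called lower and 67 (0.903%) higher in polysomes relative to input. Without replicate 1 the interaction called 230 and 129 without the block and 232 and 129 with it.

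Several members of the oocyte, maternal embryo and germline RNA regulator lists fell further in polysomes than in input. For oma-1 the input counts were 3083, 5395 and 7223 in gld-2(RNAi), against 4275, 6449.7 and 6593 in control, a log2 fold change of -0.14 (edgeR adjusted p = 0.745) beside -1.15 in polysomes. The input libraries of oma-1 overlapped between the groups, and the polysomal libraries did not. The difference was -0.97 ± 0.20 for oma-1 and -1.15 ± 0.23 for oma-2 with the replicate block (edgeR adjusted p = 0.0322 and 0.0288). For mex-3 it was -0.99 ± 0.15 and for puf-3 -0.99 ± 0.17 (edgeR adjusted p = 0.0184 and 0.0217), and for spn-4 -0.92 ± 0.21 (edgeR adjusted p = 0.0422). None of these 5 passed without the block, where all had an edgeR adjusted p above 0.05. Of the 5, mex-3 and puf-3 are in the list of germline RNA regulators, which for the most part went the other way. In that list 12 of 19 members had a positive difference and 7 a negative one. With the block 2 of them were lower and 1 higher at an adjusted p up to 0.05 whatever the fold. Across the list of oocyte and eggshell genes, 4 of 19 were lower relative to input with the block at an adjusted p up to 0.05 whatever the fold (3.56% of all genes) and none was higher, and 15 of 19 had a negative difference, as did 4026 of the 7418 genes tested. Among the maternal embryo regulators 3 of 19 were lower and none higher, with 14 of 19 negative. Negative differences were not particular to these lists. They were found in 27 of 28 msp genes, 65 of 75 cytosolic ribosomal protein genes and 29 of 33 proteasome subunit genes. With the block 0, 0 and 1 of these were lower at an adjusted p up to 0.05. Among the 20 cyclins and cell cycle kinases 3 were lower in this sense and none higher, with 13 of 20 negative.

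Meiotic genes stood the other way in part. Among 33 of them 5 were higher relative to input with the block (2.78% of all genes) and 2 lower, and 22 of 33 had a positive difference, as did 3392 of the 7418 genes. Positive differences were also found in 50 of 67 mitochondrial ribosomal protein genes and 19 of 22 nspa and nspc genes. With the block 2 and 0 of these were higher at an adjusted p up to 0.05. The input counts of syp-2 were 519, 412 and 395 in gld-2(RNAi), against 949, 1159 and 1006 in control (-1.23), while its polysomal libraries overlapped between the groups, and the difference was 1.18 ± 0.19 with the block (edgeR adjusted p = 0.0199). The log2 fold change of him-3 was -0.90 in polysomes and -1.60 in input (difference 0.68 ± 0.16, edgeR adjusted p = 0.043), and that of htp-1 was -0.60 in polysomes and -1.31 in input (difference 0.74 ± 0.16, edgeR adjusted p = 0.0357). Without the block the differences did not pass, with edgeR adjusted p-values of 0.0861 for syp-2, 0.229 for him-3 and 0.447 for htp-1. The 5 members were completed by him-5 and coh-4, named after their values were seen, at 1.10 ± 0.21 and 0.78 ± 0.20, and the 2 lower ones were him-18 and brd-1, at -0.996 and -0.725. Among the germline RNA regulators puf-8 followed the same pattern (1.06 ± 0.19, edgeR adjusted p = 0.0246), while gld-1 (-1.49 in polysomes, -2.10 in input), daz-1 (-0.93 and -1.60) and nos-3 (-0.28 and -0.86) had smaller falls in polysomes with differences that did not pass the adjusted p (edgeR adjusted p = 0.191, 0.138 and 0.0515 with the block). A difference of this kind compares a mRNA with the other mRNAs of its library and is not a count of ribosomes.

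**Figure D4:**
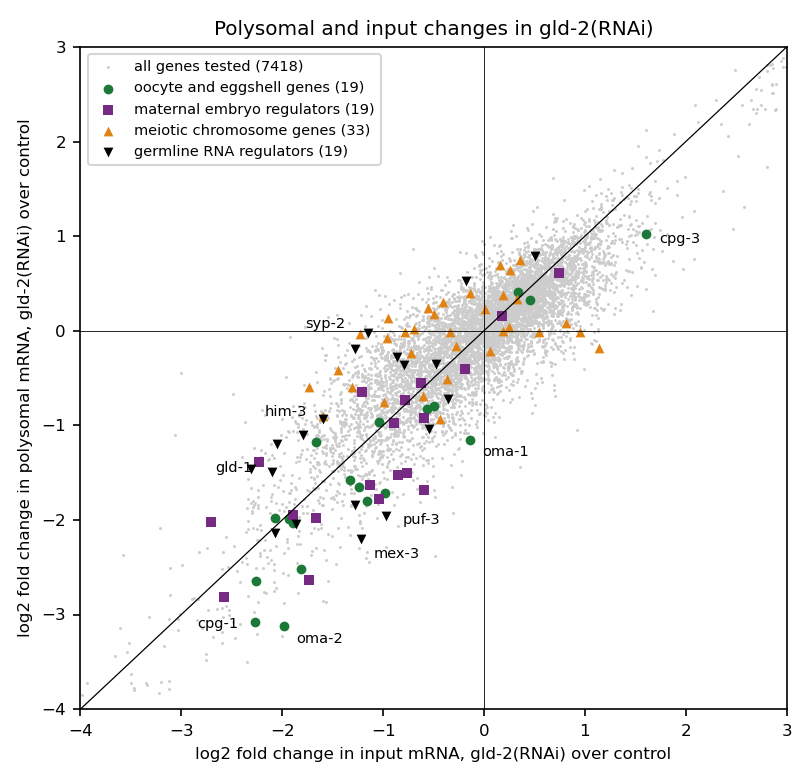
Log2 fold change in polysomal mRNA (vertical) against that in input mRNA (horizontal), gld-2(RNAi) over control, for all genes tested in grey and 4 germline lists in colour, with a line where both changes are equal and 240 genes outside the plotted range of -4 to 3. Points of oma-1, oma-2, mex-3 and puf-3 lie below the line and those of syp-2, him-3 and gld-1 above it.

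Some of the largest differences, named after their values were seen, involved genes outside these lists. The 3 phosphoglycolate phosphatase homologs pgph-1, pgph-2 and pgph-3 were not called in polysomes (-0.45, -1.10 and -0.06), although their input mRNA was several-fold lower. Polysomal counts of pgph-1 were 59.6, 94.8 and 109.5 in gld-2(RNAi), against 97, 118.6 and 145 in control, and its input counts were 37.5, 49.6 and 31.3 in gld-2(RNAi), against 178, 361 and 409.6 in control (difference 2.48 ± 0.33 with the block, edgeR adjusted p = 0.0156). The differences were 1.81 ± 0.30 for pgph-2 and 1.76 ± 0.31 for pgph-3 (edgeR adjusted p = 0.0211 and 0.0224). In the other direction the cadherin gene cdh-5 had 355, 492 and 463 polysomal counts in gld-2(RNAi), against 254, 159.6 and 159 in control, and 1804, 900.2 and 1014 input counts in gld-2(RNAi), against 116, 41.3 and 55.5 in control (difference -2.95 ± 0.39, edgeR adjusted p = 0.0156). For cdh-5 every gld-2(RNAi) library was above every control library in both fractions, and the increase was the larger in input. The sperm chromatin protein genes spch-2 and spch-3 were called higher in input but not in polysomes (2.34 and 2.19), with differences of -1.35 ± 0.19 and -1.77 ± 0.18 (edgeR adjusted p = 0.0156 and 0.00833).

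**Figure D5:**
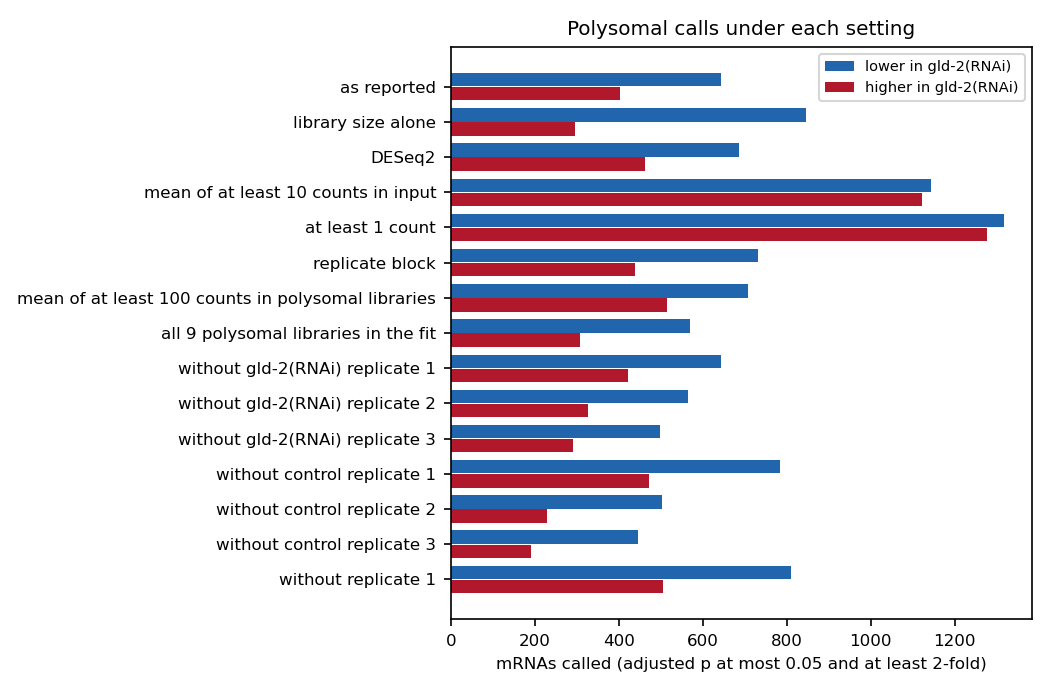
Number of mRNAs called lower (blue) and higher (red) in gld-2(RNAi) polysomes under the reported setting and 14 alternatives, on an axis from 0. Counts grow most when genes of lower abundance are tested (1318 lower and 1277 higher with at least 1 count), and shrink most without control replicate 3 (446 lower and 190 higher).

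Of the 88 genes chosen by the naming rule 67 were called in the polysomal comparison. The calls of 42 were kept under every alternative that was run, among them gld-2, oma-2, cpg-1, cpg-2, pos-1, spn-4, mex-3, ccr-4, his-24, hil-3, fer-1, R09E10.2 and nspa-7. The other 25 lost their call under at least 1 alternative.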

How the data were processed

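The authors removed adapters, aligned reads uniquely to the WS220 genome with TopHat2, counted reads per gene with featureCounts (Subread 1.4.0) and deposited raw counts of 45461 features in 27 libraries. Their comparison tables, which hold fold changes, p-values and 72 per-sample columns, were not used. The sources differ on whether the library preparation kept strand, so overlapping and antisense genes are uncertain. Of 23650 features with a count, 23095 matched a RefSeq locus tag (assembly WBcel235, used for names and chromosomes only). Of the listed names trp-3, ntl-1, rla-0 and a few others did not match and were not analysed here. Luciferase spike-in RNA was added to gradient fractions, and 0 features carry its name, so it was not used.

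Genes averaging 100 or more TMM-normalized counts in the 9 input libraries (7418) were tested by edgeR's robust quasi-likelihood test (two-sided) with Benjamini-Hochberg adjustment, and called from 2-fold upward where the adjusted p was up to 0.05. The polysomal comparison used 6 libraries and the interaction of fraction and RNAi 12. Replicate numbers were taken from the labels. Deviations from the group means correlated at 0.696, 0.617 and 0.615 between gld-2(RNAi) and control polysomal libraries of the same number. The numbers were taken to pair the libraries. Replicates 2 and 3 correlated as well with each other across the groups (0.590 and 0.648). With replicate 1 apart in both groups, these correlations cannot tell whether numbers 2 and 3 pair, so the replicate block rests on the labels. Counts of replicates differed by more than sampling noise (chi-square per degree of freedom 13.4 to 147.5). Named genes were gld-2, gld-4, the 12 called genes per direction with the largest fold and groups that did not overlap, up to 4 called members per direction and the highest member of each list, the called interaction, and 9 genes fixed by name, 1 of which (rpl-25.2) did not match. The gene lists and members were chosen with earlier results of these data known. Alternatives were other scaling, filters, thresholds, DESeq2, the block, all 9 polysomal libraries, and libraries left out. On simulated counts for the 7418 genes, the polysomal test recovered 181 of 200 genes changed 4-fold with 9 false calls, and the interaction 156 of 200 with 4. The simulated counts were drawn gene by gene, without the deviation of replicate 1 that many genes share here. They therefore do not give the rate of false calls in these libraries. Python 3.11.15, pandas 2.3.3, matplotlib 3.10.9, DESeq2 1.42.0, edgeR 4.0.16 and R 4.3.3 were used.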

Additional observations from a re-analysis of the deposited data

Results flagged for a closer look

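The change of clec-91 in gld-2(RNAi) differed between polysomal and input mRNA by a test of the difference itself, an interaction of fraction and RNAi over 12 libraries, at -1.31 ± 0.15 in log2 (edgeR adjusted p = 0.0277, and 0.0156 with the replicate block). The log2 fold change was -2.86 in polysomes and -1.57 in input, lower in 3 of 3 gld-2(RNAi) libraries in either fraction.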

How the results depend on the processing

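The polysomal counts of 644 lower and 402 higher mRNAs were within 1.5 times under library size alone, DESeq2 (687 and 462), the replicate block (732 and 439), a filter on the polysomal libraries (708 and 515), all 9 polysomal libraries in the fit (570 and 308), and 2-fold whatever the p (741 and 456). They were 1143 and 1122 with a mean of at least 10 counts (12173 genes tested), 1318 and 1277 with at least 1 count (20371 genes tested), and 1581 and 1347 with no fold threshold. With single libraries left out there were 446 to 783 lower and 190 to 473 higher mRNAs, with 229 and 190 higher mRNAs without control library 2 or 3. Of the 644 lower mRNAs 635 were also called with the replicate block, and of the 402 higher ones 395. No named gene reversed its direction under any alternative, counting those that were called.

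The polysomal minus input change called 1 lower and 0 higher mRNAs by edgeR, with 1142 at an unadjusted p under 0.05. With the replicate block it called 105 and 67, with DESeq2 29 and 67, with library size alone 0 and 1, and with at least 1 count 0 and 0 (unadjusted p under 0.05 for 933 mRNAs with library size alone and 1197 with at least 1 count). Leaving out 1 replicate of both fractions gave 0 to 40 lower and 0 to 47 higher. In fits without replicate 1 of both groups, chosen after that replicate was seen to stand apart, the polysomal counts were 810 and 505, and the polysomal minus input change called 230 and 129 without the block and 232 and 129 with the block. The cause of these moves was not tested. Counting depth limits the genes with few counts, and TMM hides any shift shared by all polysomal mRNAs.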
